A study of Mus musculus with 6 samples.

Results

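Fatty acids enter a cell in steps, and 8 genes of those steps were followed in mouse dorsal skin treated with rebamipide. They are Lpl, Gpihbp1 and Angptl4, which act on lipid particles at the capillary wall, Cd36, which carries fatty acids across the cell membrane, and Fabp3, Fabp4, Fabp5 and Fabp7, which bind fatty acids inside the cell. The genes were chosen by name from the deposited expression table, and all 8 were among its 21959 genes.

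Lipoprotein lipase (Lpl) cuts triglycerides in circulating lipoproteins and is made largely by fat and muscle cells. Gpihbp1, on capillary endothelial cells, carries the enzyme to the vessel lumen, and Angptl4 inactivates it. Fatty acid-binding proteins (FABPs) are small cytosolic carriers with preferred tissues. Fabp3 is known from heart, oxidative muscle and brown fat, Fabp4 from fat cells and capillary endothelium, Fabp5 from epidermis, and Fabp7 from brain and other neural tissue. Many of these genes are textbook targets of the PPAR nuclear receptors, and the table annotated 7 of the 8 (all but Gpihbp1) to the KEGG PPAR signaling pathway.

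The samples were full-thickness dorsal skin of C57BL/6 mice with no engineered allele, described in the methods as male, which were shaved at 7 weeks of age while the hair follicles were in telogen, the resting phase. One group received vehicle (dipropylene glycol in water) on the shaved skin daily for 7 days, and the other received 3% rebamipide, a gastroprotective quinolinone drug, on the same schedule. Each group had 3 libraries of poly(A)-selected RNA, from a cohort of 3 mice per group. Full-thickness skin holds epidermis, follicles, dermis, dermal fat and muscle, and in such bulk RNA fewer cells of a type and less RNA per cell cannot be told apart.

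The libraries held 38676018 to 39915276 gene counts in the vehicle group and 32709801 to 34706852 in the rebamipide group. Markers of the labelled tissue were not equally present. Krt14, a keratin of basal epidermal cells, had 522.8 to 1307 TMM CPM (read counts scaled to library size) in the vehicle libraries and 360.7, 237.8 and 0 CPM in rebamipide libraries 1, 2 and 3. The summed CPM of 5 basal keratinocyte markers was 2045 to 3520 with vehicle and 978.3, 541.9 and 15.04 with rebamipide. Ucp1, the uncoupling protein that defines brown fat cells, had 0 counts in every vehicle library and 2669 to 8591 CPM in the rebamipide libraries. The calls, the fold changes and the Fabp5 to Fabp4 ratio are therefore also given without rebamipide library 3, in which most epidermal markers were nearly absent.

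Across the 8 genes, most lipid uptake and carrier transcripts were higher in the rebamipide libraries, Fabp5 was lower, and Fabp7, at very low counts, was not called. Of the 8, 5 rose (Fabp3, Angptl4, Fabp4, Gpihbp1 and Cd36) and 1 fell (Fabp5) at an adjusted p under 0.05 in edgeR's quasi-likelihood test with Benjamini-Hochberg adjustment over 14875 genes, in which 14.1% of all genes were called higher and 6.51% lower (20.6% in either direction). DESeq2 also called Lpl, making 6 higher and 1 lower, against 18.3% and 17% of all genes. All 8 genes passed the filter on low counts, but Fabp7 did so only through the vehicle libraries. TMM CPM values separated the groups without overlap for 7 of the 8 genes, 6 of them higher with rebamipide, where 24.5% of all genes were higher and 24% lower in every rebamipide library. Leaving out rebamipide library 3, edgeR called 4 genes higher and 1 lower, with Cd36 no longer past the threshold (log2 fold change 2.11, adjusted p = 0.08621), against 6.6% of all genes called higher and 2.49% lower in that fit. The other log2 fold changes without that library were 1.75 for Lpl, 2.88 for Gpihbp1, 3.23 for Angptl4, 3.95 for Fabp3, 3.11 for Fabp4, -1.55 for Fabp5 and -1.91 for Fabp7.

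**Figure D1:**
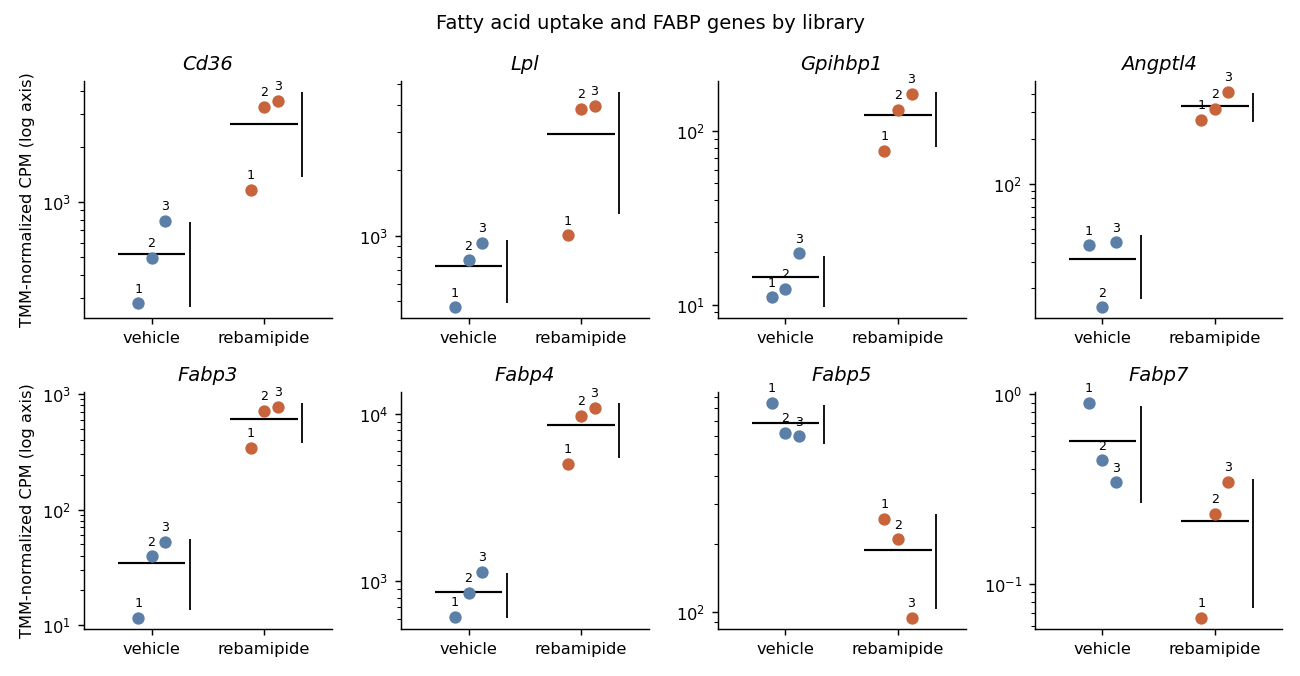
TMM-normalized CPM of each gene (vertical log axis, scaled separately in each panel) in the 3 vehicle (blue) and 3 rebamipide (orange) libraries, numbered by replicate, with the group mean as a horizontal line and 1 SD either side as the vertical line (n = 3). The groups do not overlap for any gene except Fabp7, and rebamipide library 1 is the lowest of its group for Cd36, Lpl, Gpihbp1, Angptl4, Fabp3 and Fabp4.

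At the capillary wall, Gpihbp1 and Angptl4 changed most firmly. Gpihbp1 (ENSMUSG00000022579, chr15:75468477-75471330, plus strand, coordinates of the deposited table on GRCm39) measured 10.98, 12.31 and 19.74 CPM in the vehicle libraries and 77.35, 132.6 and 164.6 CPM in the rebamipide libraries. Even the lowest rebamipide library stood well above the highest vehicle library, and the mean rose 8.71-fold, from 14.34 ± 4.72 to 124.9 ± 44.1 CPM (SD, n = 3), with a log2 fold change of 3.12 (SE 0.39, edgeR adjusted p = 0.009928).

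Angptl4 (ENSMUSG00000002289, chr17:33992724-34000804, minus strand), the secreted inhibitor of the lipase, measured 38.6, 14.84 and 40.41 CPM with vehicle and 268.8, 314.8 and 412.4 CPM with rebamipide. Vehicle library 2 was the low one of its group, and the rebamipide libraries were close to one another. The log2 fold change was 3.41 (SE 0.45, edgeR adjusted p = 0.01008), or 10.6-fold between the means.

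Lpl itself (ENSMUSG00000015568, chr8:69333143-69360100, plus strand) measured 468.7, 771 and 931.4 CPM with vehicle and 1004, 3823 and 3949 CPM with rebamipide. The groups did not overlap, yet rebamipide library 1 lay just above the highest vehicle library while the other two were several times higher. The means were 723.7 ± 235 and 2925 ± 1660 CPM (SD, n = 3), a 4.04-fold difference, and the log2 fold change of 2.02 (SE 0.60) did not pass edgeR's threshold (adjusted p = 0.05984). DESeq2 gave it an adjusted p of 0.004159. Of the 6 edgeR fits with 1 library left out, only the one without rebamipide library 1 called Lpl higher (log2 fold change 2.43, adjusted p = 0.01357), and the adjusted p was 0.09136 to 0.1843 in the others.

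Cd36 (ENSMUSG00000002944, chr5:17986688-18093799, minus strand), the membrane fatty acid translocase, followed the order of Lpl across the libraries. It measured 279.5, 495.8 and 790.4 CPM with vehicle and 1164, 3306 and 3547 CPM with rebamipide. Rebamipide library 1 was again the lowest of its group and still above every vehicle library. The means of 521.9 ± 256 and 2672 ± 1310 CPM (SD, n = 3) differed 5.12-fold, with a log2 fold change of 2.36 (SE 0.60, edgeR adjusted p = 0.04027). The Cd36 call was lost in edgeR on scaling to total counts alone (adjusted p = 0.05158) and without vehicle library 1 (adjusted p = 0.09251).

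The 4 FABP genes are paralogs, so a read must fall on a stretch where they differ to be assigned to the right gene. The sequences below are the 60 bases at which the GENCODE M21 transcripts of the 4 genes are most alike, placed by best ungapped match to Fabp4. The first-listed coding transcript of each gene (GRCm38) was used, written 5′ to 3′ with bases identical in all 4 in capitals. These 60 bases are coding sequence and cross from exon 1 into exon 2 of 4 exons in each gene.
Fabp3: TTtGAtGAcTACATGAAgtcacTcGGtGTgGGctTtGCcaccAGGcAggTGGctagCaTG
Fabp4: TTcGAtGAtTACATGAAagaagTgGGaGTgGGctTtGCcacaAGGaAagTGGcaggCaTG
Fabp5: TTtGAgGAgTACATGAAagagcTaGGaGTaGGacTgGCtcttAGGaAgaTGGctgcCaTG
Fabp7: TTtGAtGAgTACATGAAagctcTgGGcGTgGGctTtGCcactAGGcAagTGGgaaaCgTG

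On the GRCm38 genome these stretches, with the intron they span, lie at chr4:130308826-130312325 on the plus strand (Fabp3), chr3:10206088-10208463 on the minus strand (Fabp4), chr3:10012694-10015005 on the plus strand (Fabp5) and chr10:57785057-57785540 on the plus strand (Fabp7). Even here only 34 of the 60 bases were shared by all 4, and the longest run shared by all 4 was 8 bases. Over whole coding sequences, pairwise identity was 55.3% (Fabp5 and Fabp7) to 66.2% (Fabp3 and Fabp7), with 65.3% for Fabp3 and Fabp4 and 60.8% for Fabp4 and Fabp5. The longest run that any pair shared over the whole transcripts, untranslated ends included, was 20 bases (Fabp3 and Fabp7).

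Fabp4 (ENSMUSG00000062515, chr3:10269148-10273636, minus strand) was the most abundant of the 8 genes in the rebamipide libraries by counts. It measured 610.6, 852.3 and 1136 CPM with vehicle and 5055, 9815 and 10960 CPM with rebamipide. The groups were far apart, with a log2 fold change of 3.31 (SE 0.49, edgeR adjusted p = 0.01163). Ranked by raw counts among all genes, Fabp4 stood 53rd to 118th in the vehicle libraries and 6th to 11th in the rebamipide libraries, and its share of all gene counts went from 0.078 to 0.137% up to 0.469 to 0.827%. The 8 genes together took 0.29 to 0.432% of counts with vehicle and 0.759 to 1.5% with rebamipide.

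Fabp3 (ENSMUSG00000028773, chr4:130202388-130209256, plus strand), the heart and muscle carrier, had the largest fold change of the 8. It measured 11.48, 39.31 and 52.13 CPM with vehicle and 340.9, 711.6 and 777.7 CPM with rebamipide. Vehicle library 1 was lowest in its group, as was rebamipide library 1. The mean went from 34.31 ± 20.8 to 610.1 ± 235 CPM (SD, n = 3), or 17.8-fold, with a log2 fold change of 4.15 (SE 0.68, edgeR adjusted p = 0.01376). The gene shares 81 bases with Zcchc17 on the opposite strand, and the strand setting of the counting is not given in the sources used here, so reads on those bases are uncertain.

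Fabp5 (ENSMUSG00000027533, chr3:10077608-10081667, plus strand), the epidermal carrier, went the other way. It measured 848.3, 623 and 600 CPM with vehicle and 259.1, 209.6 and 93.84 CPM with rebamipide. The highest rebamipide value was less than the lowest vehicle value, and rebamipide library 3 was the lowest of the 6. The vehicle mean of 690.4 ± 137 CPM was 3.68-fold above the rebamipide mean of 187.5 ± 84.8 CPM (SD, n = 3). The log2 fold change was -1.88 (SE 0.42, edgeR adjusted p = 0.02965), and -1.55 without rebamipide library 3 (adjusted p = 0.04706). The edgeR call was lost without vehicle library 1 (adjusted p = 0.07589) or vehicle library 3 (adjusted p = 0.05501).

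Fabp4 and Fabp5 moved in opposite directions although both lie in 1 cluster of 5 FABP family genes on chromosome 3. The cluster spans 288636 bases, and 187480 bases separate the pair. The other 3 cluster genes, Pmp2, Fabp9 and Fabp12, stayed at or below 0.6811 CPM in every library and were too low to test.

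Fabp7 (ENSMUSG00000019874, chr10:57660977-57664546, plus strand), the brain carrier, was barely detected. Its raw counts were 45, 22 and 16 with vehicle and 2, 6 and 9 with rebamipide. In TMM CPM, rebamipide library 3 (0.3435) exceeded vehicle library 3 (0.3421), so the groups overlapped. The log2 fold change of -1.40 (SE 0.73) did not pass the threshold (edgeR adjusted p = 0.2017). Of the other fits, limma on log2(FPKM + 0.1) alone called it lower (-1.48, adjusted p = 0.0413). Of 6 markers of Schwann cells, the glia of skin nerves, edgeR called 0 (1 at an unadjusted p under 0.05, and 2 lower by DESeq2), with a summed level of 239.9 to 595 CPM with vehicle and 142.7 to 324.2 CPM with rebamipide.

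The composition of the FABP pool differed between the groups. As shares of the summed FPKM (read counts scaled to library size and gene length) of the 4 genes, Fabp5 made up 61.21, 42.32 and 34.69% in the vehicle libraries and 4.503, 1.889 and 0.7708% in the rebamipide libraries. Fabp4 made up 35.01, 46.01 and 52.19% with vehicle and 69.82, 70.3 and 71.53% with rebamipide. Fabp3 made up 3.59, 11.58 and 13.06% with vehicle and 25.68, 27.8 and 27.69% with rebamipide. The vehicle libraries thus varied widely among themselves, from mostly Fabp5 to mostly Fabp4, while the shares of Fabp4 and Fabp3 in the rebamipide libraries lay within a few points of each other.

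Mean shares went from 46.08 ± 13.65% to 2.387 ± 1.915% for Fabp5, from 44.4 ± 8.7% to 70.55 ± 0.8843% for Fabp4, from 9.409 ± 5.095% to 27.06 ± 1.195% for Fabp3 and from 0.1096 ± 0.06757% to 0.005777 ± 0.002401% for Fabp7 (SD, n = 3). The shares of Fabp3, Fabp4 and Fabp5 did not overlap between the groups, each with a two-sided exact permutation p of 0.1, which is the smallest that 3 against 3 libraries allow. The Fabp7 share rests on 2 to 9 counts per rebamipide library and is given as a value only. Adding the other 6 FABP family genes to the denominator left the differences almost as they were (17.7 points for Fabp3, 26.3 for Fabp4 and -43.5 for Fabp5).

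The Fabp3 share depended on the gene length behind the FPKM. The table gave Fabp4 a length of 4489 bases, 100% of its genomic span, where its coding transcript in GENCODE M21 has 896 bases and a retained-intron transcript 4231. Fabp5 stood at 3567 bases against a coding transcript of 987, and Fabp3 at 823 bases by both. On coding transcript lengths, Fabp3 made up 2.364% with vehicle and 6.954% with rebamipide, Fabp4 55.83% and 90.83%, and Fabp5 41.76% and 2.212%. The directions stayed, and Fabp3 was then a minor carrier in both groups. This length was tried after the deposited lengths were seen.

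**Figure D2:**
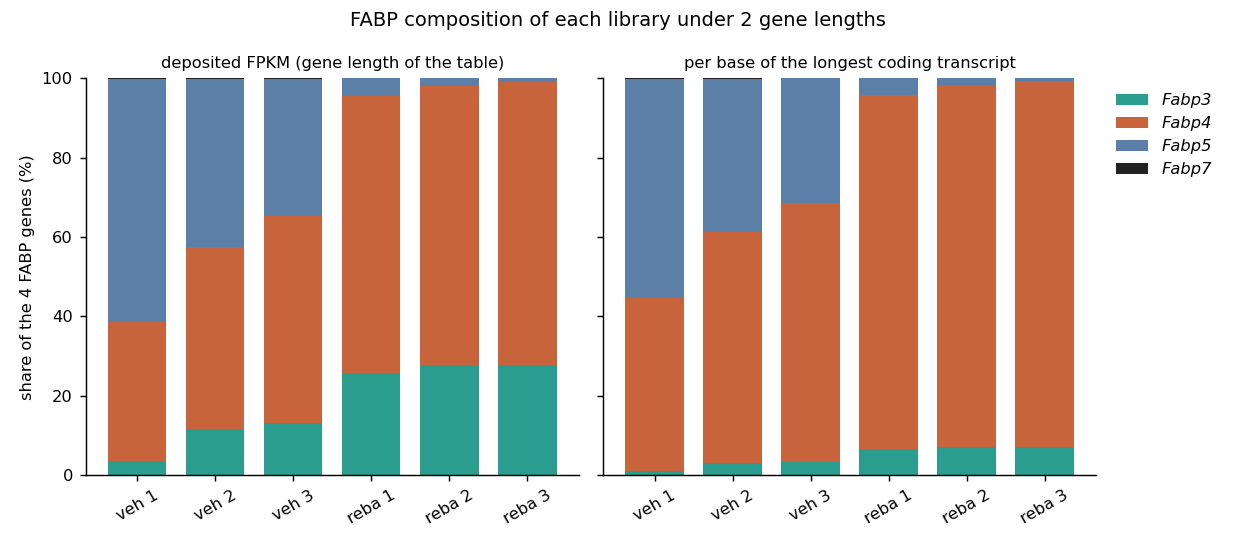
Share of Fabp3, Fabp4, Fabp5 and Fabp7 in their sum (vertical axis, %) in each library, from the deposited FPKM (left) and per base of the longest protein-coding transcript (right). Fabp5 takes 34.69 to 61.21% of the bar in the vehicle libraries and at most 4.503% in the rebamipide libraries on the left, and Fabp3 shrinks to 0.8963 to 7.186% on the right.

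Across all 8 genes, the order of mean FPKM with vehicle was Fabp5 (240.9 ± 54.8), Fabp4 (238 ± 66.2), Cd36 (178.7 ± 83.7), Lpl (85.13 ± 25.6), Fabp3 (51.11 ± 30.2), Angptl4 (10.96 ± 5.02), Gpihbp1 (6.926 ± 2.11) and Fabp7 (0.5643 ± 0.314, SD, n = 3). The ranges of Fabp5, Fabp4 and Cd36 overlapped, as did those of Lpl and Cd36, of Fabp3 and Lpl, and of Gpihbp1 and Angptl4. With rebamipide the order was Fabp4 (1507 ± 413), Fabp3 (581.1 ± 174), Cd36 (578.1 ± 242), Lpl (215.3 ± 110), Angptl4 (74.91 ± 11.5), Fabp5 (43.71 ± 23.8), Gpihbp1 (38.51 ± 10.3) and Fabp7 (0.132 ± 0.0795). The ranges of Fabp3 and Cd36 overlapped, and that of Fabp5 overlapped those of Angptl4 and Gpihbp1, while Fabp4 stood clear of all others. On coding transcript lengths Fabp4 led in both groups, at 1193 and 7550 FPKM, and Cd36 stood above Fabp3 with rebamipide. FPKM divides by total counts without the TMM factors, so its differences between groups are smaller for genes that rose than those in TMM CPM.

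Ratios within a library need no scaling between libraries and show which genes kept step. Of 29 log2 FPKM ratios computed without Fabp7, 19 did not overlap between the groups, each at the smallest exact permutation p of 0.1 (two-sided). The ratios reuse the same genes and are not independent, and the share among ratios of other genes was not computed. By TMM CPM of single genes, 24.5% of all genes were higher and 24% lower in every rebamipide library. The Fabp5 to Fabp4 log2 ratio measured 0.81, -0.12 and -0.59 with vehicle and -3.95, -5.22 and -6.54 with rebamipide. The groups stood far apart, by -5.27 between the means (-4.62 without rebamipide library 3). Fabp3 rose more than Fabp4, with a mean log2 ratio of -2.43 ± 0.75 with vehicle and -1.38 ± 0.05 with rebamipide (SD, n = 3). Vehicle library 1 (-3.29) stood well below the other vehicle libraries, and without it the difference went from 1.04 to 0.61.

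Lpl was lower relative to Gpihbp1 and Fabp4 in every rebamipide library. The Lpl to Gpihbp1 log2 ratio measured 3.38, 3.93 and 3.52 with vehicle and 1.66, 2.81 and 2.55 with rebamipide, a mean difference of -1.27. Lpl against Fabp4 differed by -1.45, Cd36 against Fabp4 by -0.96 and Cd36 against Gpihbp1 by -0.78, each without overlap. Angptl4 against Lpl was higher by 1.69 with rebamipide, but vehicle library 1 (-2.04) reached rebamipide library 2 (-2.04), and the exact permutation p was 0.2.

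Set against Plin1, the lipid droplet coat protein of fat cells, most of the genes did not separate. The log2 ratios to Plin1 of Cd36 (difference -0.44), Lpl (-0.93), Gpihbp1 (0.34), Angptl4 (0.76) and Fabp4 (0.52) overlapped between the groups. Leaving out 1 library moved each of these by over 1.5 times, to -0.11 for Cd36 and -0.47 for Lpl without rebamipide library 1, -0.68 for Cd36 without rebamipide library 2, 0.64 for Gpihbp1 and 1.44 for Angptl4 without vehicle library 1, 0.27 for Angptl4 without vehicle library 2, and 0.16 for Gpihbp1 and 0.30 for Fabp4 without vehicle library 3. Fabp3 over Plin1 was higher in every rebamipide library, at -0.57, 0.24 and -0.20 with vehicle and 1.02, 1.71 and 1.44 with rebamipide. Over Adipoq, a fat cell hormone, Fabp4 was higher by 1.12, Fabp3 by 2.16, Angptl4 by 1.36 and Gpihbp1 by 0.94 without overlap, Fabp5 differed by -4.15 without overlap, while Cd36 (0.16) and Lpl (-0.33) overlapped and turned sign without rebamipide library 2 (-0.08 for Cd36) or rebamipide library 1 (0.14 for Lpl). The endothelial adhesion molecule Pecam1 had the smallest edgeR log2 fold change of 8 endothelial markers (1.21, against 2.87 for Kdr, the largest). Ratios to the other endothelial markers were not computed, so those to Pecam1 hold for that reference alone. Over Pecam1, Gpihbp1 went from a mean of -1.82 ± 0.23 to -0.02 ± 0.53 (SD, n = 3), with no overlap. Angptl4 (2.21), Fabp3 (3.02) and Fabp4 (1.98) were also higher over Pecam1 and Fabp5 (-3.29) lower in every rebamipide library, while Cd36 (1.02) and Lpl (0.53) overlapped. The Lpl difference over Pecam1 was 1.18, 0.17 and 0.25 without rebamipide library 1, 2 and 3 in turn.

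**Figure D3:**
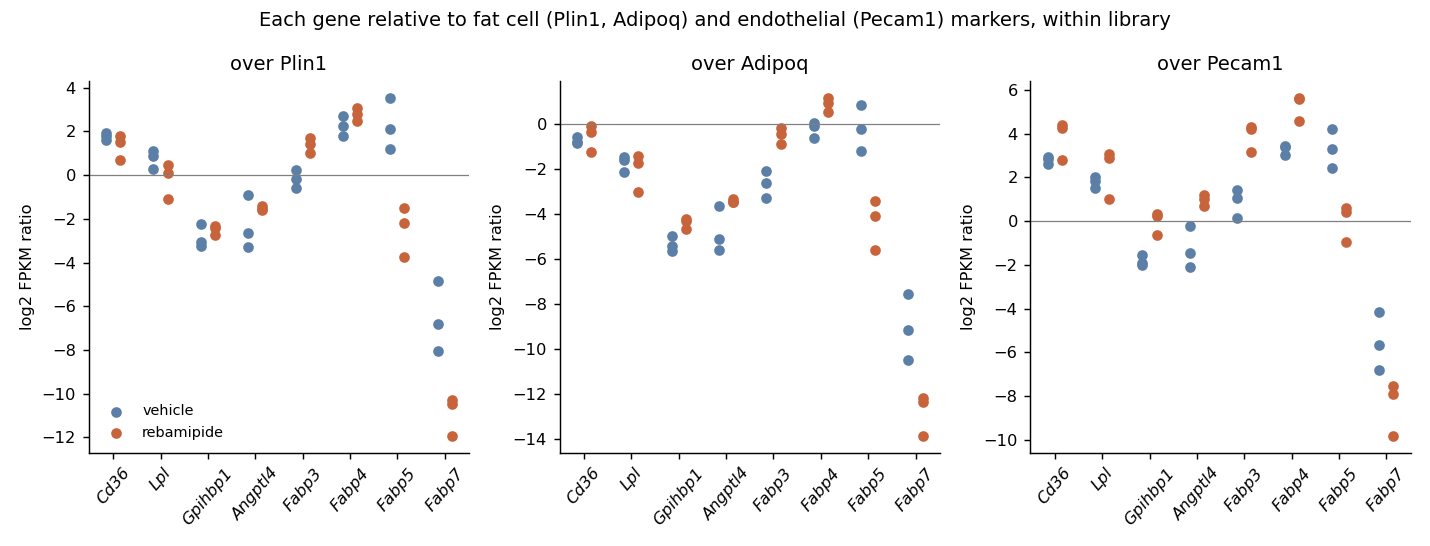
Log2 ratio of the FPKM of each gene to that of Plin1, Adipoq and Pecam1 within each library (vertical axes), for 3 vehicle (blue) and 3 rebamipide (orange) libraries. Over Plin1, Fabp3 lies higher and Fabp5 and Fabp7 lower in every rebamipide library while the other genes overlap, and over Pecam1 the groups overlap for Cd36 and Lpl. The Fabp7 points rest on 2 to 9 counts per rebamipide library.

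Markers of several cell types moved with these genes, and their part in the results was not tested. Of 8 white and shared fat cell markers, 5 rose (Adipoq, Plin1, Cidec, Pparg and Lipe). The summed level of the 8 went from 941.5 to 3502 CPM with vehicle to 5566 to 7380 CPM with rebamipide. Lep (log2 fold change -0.53), Retn (-0.23) and Cfd (0.34), the rest of that list, were called by neither edgeR nor DESeq2. Of 8 brown fat markers, 5 rose (Ucp1, Cidea, Otop1, Cox7a1 and Prdm16), and the summed level went from 202.5 to 358 CPM to 4739 to 12390 CPM. Zic1 (log2 fold change 0.09), Lhx8 (1.06) and Elovl3 (-1.45), the other brown fat markers, did not pass edgeR's test, and DESeq2 called Elovl3 lower (adjusted p = 0.008779). Of 8 endothelial markers, 5 rose (8 by DESeq2), from a summed 253.9 to 608.7 CPM to 1238 to 1878 CPM.

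Rebamipide library 1 had the lowest brown fat sum of its group (4739 CPM, against 12390 and 10160) and was also lowest for the 6 genes of higher level. Markers of slow muscle, an oxidative tissue known to express Fabp3, stood at 2.074 to 13.52 CPM with vehicle and at 290.1, 129.3 and 7.022 CPM in rebamipide libraries 1, 2 and 3, and 4 of 6 rose (5 by DESeq2). One of those 4, Myh7, passed the filter on low counts only through the rebamipide libraries, as did Ucp1. In rebamipide library 3 the slow muscle sum lay within the vehicle range, but Myh7 (1.412 CPM), Myl3 (1.832), Myl2 (1.145) and Tnnc1 (1.03) each stood above every vehicle library. The 8 fast muscle markers summed to 5182 to 25600 CPM with vehicle and to 32780, 7017 and 263.1 CPM in rebamipide libraries 1, 2 and 3. The part of muscle content in the Fabp3 values was not tested.

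As a percentage of the vehicle mean, Fabp5 stood at 123, 90.2 and 86.9% in vehicle libraries 1, 2 and 3 and at 37.5, 30.4 and 13.6% in rebamipide libraries 1, 2 and 3. The summed basal keratinocyte markers stood at 71.4, 123 and 106% and at 34.1, 18.9 and 0.525%. The 5 suprabasal markers stood at 23.4, 120 and 156% and at 39.9, 26.3 and 0.149%, so that vehicle library 1, the highest for Fabp5, was below rebamipide libraries 1 and 2 for them. The sums are dominated by keratins, and the markers were unequal in library 3, where Krt14 had 0 counts and Krt5 0.1527 CPM but Itgb4, a basal integrin, had 13.28 CPM against 59.03 to 81.02 with vehicle. The part of epidermal content in the Fabp5 values was not tested. Of the keratinocyte markers, edgeR called 0 of 5 basal ones (2 at an unadjusted p under 0.05, and 2 lower by DESeq2) and 0 of 5 suprabasal ones (0 at an unadjusted p under 0.05, and 0 by DESeq2). Sebaceous gland markers, with 1 of 6 lower (4 by DESeq2), went from 427.6 to 711.9 CPM to 43.93 to 218.8 CPM.

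Among the remaining lists, edgeR called 0 of 6 macrophage markers (1 at an unadjusted p under 0.05, 1 lower by DESeq2), and 0 of 5 hair follicle bulge and 0 of 5 fibroblast markers (each with 2 at an unadjusted p under 0.05 and 2 lower by DESeq2). The 8 fast muscle markers had no call by edgeR or DESeq2 and 0 at an unadjusted p under 0.05. Of 5 red cell genes, 3 rose (5 by DESeq2), from a summed 42.39 to 199.9 CPM to 345.5 to 808.6 CPM.

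**Figure D4:**
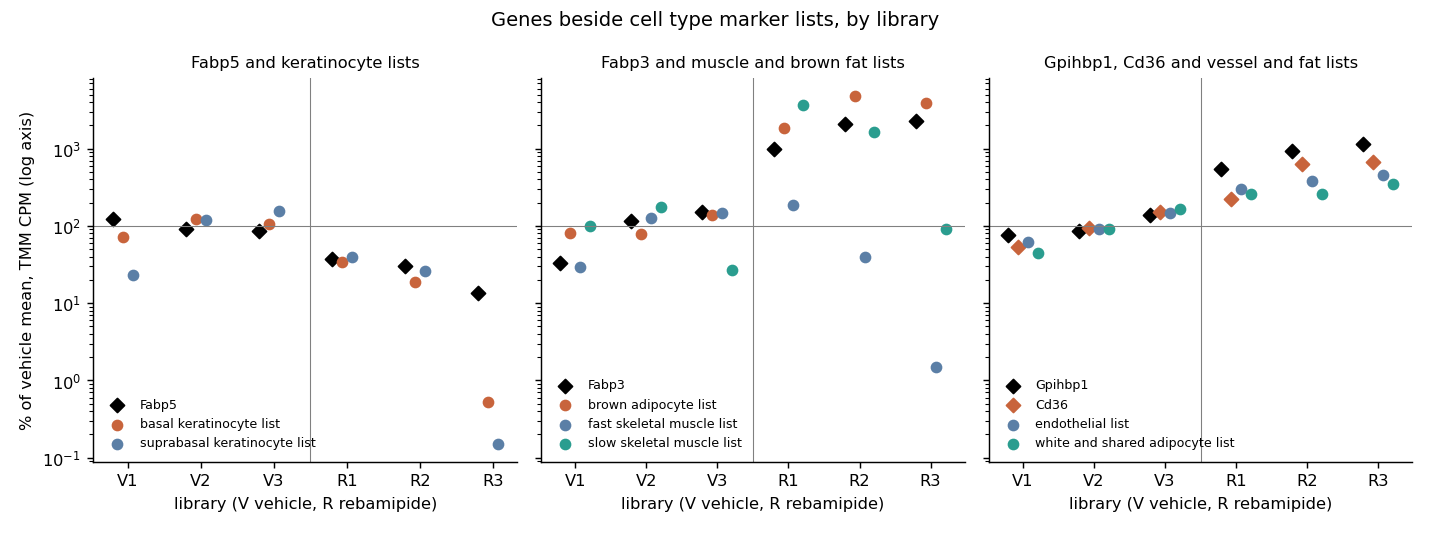
Level of selected genes (diamonds) and summed level of cell type marker lists (circles) as a percentage of the vehicle mean (vertical log axis, TMM CPM) in each of the 6 libraries. In rebamipide library 3, Fabp5 stands at 13.6% and the summed keratinocyte lists at 0.525 and 0.149%, and the fast muscle list stands lowest of the 6 libraries.

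Among other genes of lipoprotein lipolysis, edgeR called 5 of 14 listed genes higher and 0 lower, 6 did not pass and 3 were too low to test, while DESeq2 called 6 higher and 1 lower. Lmf1, which folds the lipase in the endoplasmic reticulum, went from 9.508 ± 1.27 to 32.54 ± 8.8 CPM (log2 fold change 1.77, edgeR adjusted p = 0.0125). Apoc1, an apolipoprotein that restrains lipolysis, went from 61.48 ± 14.5 to 201.7 ± 54.3 CPM (1.71, adjusted p = 0.01532). The lipase inhibitor Angptl8 (log2 fold change 2.80, adjusted p = 0.03028) and the protease Furin (0.71, adjusted p = 0.04117) also rose. So both partners of the lipase for maturation and transport (Lmf1 and Gpihbp1) and its inhibitors Angptl4 and Angptl8 were called higher, while Lpl itself missed the threshold in edgeR. Sdc1, an epithelial and hepatic heparan sulfate proteoglycan and the gene of the list with the highest mean CPM over the 6 libraries, measured 367.4 ± 85.1 and 62.61 ± 55.6 CPM (log2 fold change -2.55, adjusted p = 0.0704 with edgeR and 0.003578 with DESeq2).

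Of 13 other uptake genes, 3 rose and 1 fell, 8 did not pass and 1 was too low to test, while DESeq2 called 7 higher and 3 lower. Slc27a2, a very long-chain acyl-CoA synthetase and transporter, had 2, 0 and 6 counts in the vehicle libraries and 3127, 8826 and 9535 in the rebamipide libraries. It passed the filter on low counts only through the rebamipide libraries, so its call is no independent support, and no fold change is given against so few counts. Acsl1, which traps fatty acids as acyl-CoA, went from 325.9 ± 127 to 3971 ± 1700 CPM (log2 fold change 3.61, adjusted p = 0.01255). Zdhhc4, a palmitoyltransferase of Cd36, rose by less (0.76, adjusted p = 0.03951). Slc27a4, the epidermal fatty acid transporter, fell (log2 fold change -1.12, adjusted p = 0.04374). Slc27a4 and Fabp5 were both lower, and the part of epidermal content in the Slc27a4 values was not tested either. The caveolar genes Cav1 (1.36, adjusted p = 0.06383) and Cavin1 (1.09, adjusted p = 0.05582) did not pass in edgeR and were called higher by DESeq2 (adjusted p = 0.01284 and 0.01314).

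The other FABP family genes contributed little. Fabp6, the ileal bile acid carrier and the only one of the 6 to pass the filter, had a log2 fold change of -1.89 (edgeR adjusted p = 0.2515). Among the retinoid-binding relatives of the same fold, Rbp7 rose (log2 fold change 2.36, from 3.676 ± 1.73 to 18.87 ± 6.4 CPM, adjusted p = 0.0213), while Crabp2, the highest of them, did not pass (-2.35, adjusted p = 0.1928). Rbp7 is known from fat and endothelium.

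Of 8 PPAR regulators, edgeR called 5 higher and 0 lower (6 and 0 by DESeq2). Ppara, the receptor of fatty acid oxidation, went from 6.245 ± 2.19 to 225.7 ± 83.5 CPM (log2 fold change 5.17, edgeR adjusted p = 0.009387). Pparg, the receptor of fat cell identity, went from 41.28 ± 21.6 to 273 ± 92.6 CPM (2.73, adjusted p = 0.01915), and the coactivator Ppargc1b rose by 3.72. The partner receptors Rxrg (2.62) and Rxrb (0.77) also rose, whereas Rxra, with the highest mean CPM of the list over the 6 libraries, did not pass (-0.20, adjusted p = 0.4809). Pparg is on the fat cell list as well.

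Promoter sequence from RefSeq (GRCm38.p6, 300 bases around the gene start) was at hand for 3 of the 8 genes, Cd36, Fabp3 and Fabp7. Neither a full PPAR response element (the direct repeat with 1 spacer base, with no mismatch allowed) nor TATAAA, searched on both strands, occurred in these 3 windows, while 0.381% and 13.6% of 32851 promoters held them.

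The genes most like each member over the 6 libraries, by Pearson r of log2 CPM among 13377 tested genes with a mean of at least 50 counts, were Pde4a (0.9996), St6galnac6 and Mtfr1l for Fabp3, Ndufv3 (0.9998), Chchd3 and Trmt9b for Fabp4, Spata6l (0.9998), Esrra and Pisd for Gpihbp1, and Gdpd3 (0.9983), Cgas and Mfsd6 for Fabp5. For Cd36 they were Ppm1a (0.9984), Pde3b and Nxnl1, for Lpl Tmem126b (0.9979), Nadk2 and Mfsd8, and for Angptl4 Cd320 (0.9978), Ephb4 and Ctbp1. For Fabp7 they were Rfx3 (0.9946), Mettl4 and Strbp. The 6 libraries fall into 2 groups and share depth and scaling within each table, so these values are a description of ranking with no test, and a high r does not mean a like fold change. Ndufv3, a respiratory complex I subunit, had a log2 fold change of 2.89, close to that of Fabp4, but Ctbp1 had 0.42 against 3.41 for Angptl4.

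No member changed direction under any of 30 other fits (29 for Fabp7), but the edgeR calls leaned on single libraries. Without vehicle library 2 or without rebamipide library 2, edgeR called 0 of the 8 genes at an adjusted p under 0.05, although 7 had an unadjusted p under 0.05 in each case. Those fits called 0 and 1 genes among all tested, with 4116 and 4062 at an unadjusted p under 0.05. DESeq2 called 6 genes higher and 1 lower in each of its 6 fits with 1 library left out. In the 6 edgeR fits with 1 library left out, the log2 fold change was 2.01 to 2.78 for Cd36, 1.74 to 2.43 for Lpl, 2.88 to 3.42 for Gpihbp1, 3.04 to 3.64 for Angptl4, 3.70 to 4.58 for Fabp3, 3.07 to 3.59 for Fabp4, -2.18 to -1.55 for Fabp5 and -1.91 to -0.92 for Fabp7. On scaling to total counts alone, it was 1.69 for Cd36, 1.34 for Lpl, 2.47 for Gpihbp1, 2.77 for Angptl4, 3.51 for Fabp3, 2.66 for Fabp4, -2.46 for Fabp5 and -2.07 for Fabp7.

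**Figure D5:**
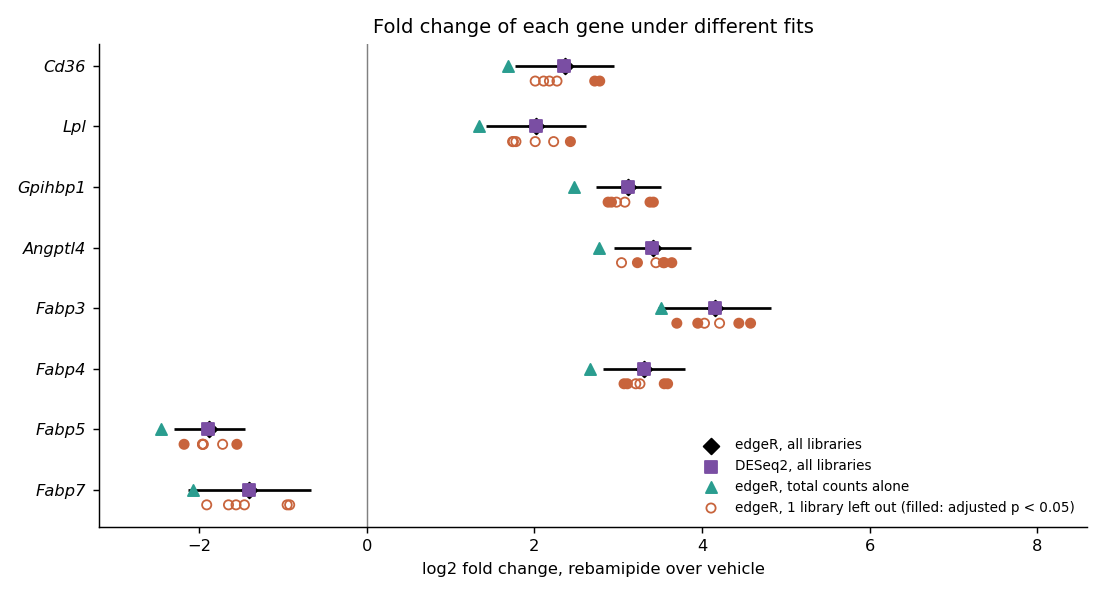
Log2 fold change of each gene, rebamipide over vehicle (horizontal axis), from edgeR on all libraries (black, with 1 SE either side), DESeq2 (purple), edgeR on total counts alone (green) and edgeR with 1 library left out (orange circles, filled where the adjusted p was under 0.05). Every estimate keeps the sign of its gene, total-count scaling moves all 8 to lower values, and only the filled circles pass.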

How the data were processed

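Gene expression in dorsal skin was measured by RNA-seq in 6 libraries. The deposited table holds raw gene counts and FPKM made by the authors. The submitters' processing notes name fastp 0.22.0, HISAT2 2.1.0, HTSeq 0.9.1 and GRCm39, and the counting's strand setting is not given in the sources used here. The deposited FPKM equal counts divided by the table's gene length and the library's total count. Groups came from the sample titles. The study's methods give 3 mice per group, so p-values measure the spread between these animals' libraries.

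Counts were tested with edgeR 4.0.16 in R 4.3.3 (TMM, filterByExpr, quasi-likelihood test, 14875 genes) as 3 rebamipide against 3 vehicle libraries with no covariate, with Benjamini-Hochberg adjustment. DESeq2 1.42.0, limma 3.58.1 on voom weights and on log2(FPKM + 1) and log2(FPKM + 0.1), other scalings and filters, and leaving out each library were alternatives. TMM factors were 1.21 to 1.279 with vehicle and 0.7464 to 0.9286 with rebamipide. CPM are counts scaled to the TMM-adjusted library size. Standard errors are those of the fitted log2 change. Shares and ratios were compared with two-sided exact permutation tests, which cannot go below 0.1 here. The fits and tests were tested on simulated data.

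The 8 genes, the gene lists and the tests were chosen with earlier results of these data known. Named genes were the 8 members, their 3 most similar genes, and of each pathway list the up to 3 with the smallest p and the 1 with the highest CPM. Genes of the marker lists were named where their level stands beside a member. Angptl8, Furin, Slc27a4, Rxrg, Rxrb, Cav1 and Cavin1 were named in addition after their values were seen. The table's annotation columns were used for pathway labels only. Protein sequences were not used here, and some genes of the pathway lists are not reported here.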

Additional observations from a re-analysis of the deposited data

How the results depend on the processing

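With 3 libraries per group the edgeR calls depend on single libraries, while the directions of the 8 genes held in every fit run. With 1 library left out, edgeR called 0 to 6 members higher and 0 to 1 lower, DESeq2 6 higher and 1 lower in each fit, and limma-voom 1 to 6 higher and 0 to 1 lower. Of all genes tested, edgeR then called 0 to 2810 higher and 0 to 1971 lower, DESeq2 2046 to 3657 higher and 1419 to 4189 lower, and limma-voom 210 to 2783 higher and 7 to 1384 lower. DESeq2 called 2016 genes lower without vehicle library 1, 3416 higher and 3043 lower without vehicle library 3, 2273 lower without rebamipide library 2 and 1865 lower without rebamipide library 3. limma-voom called 256 higher and 14 lower without rebamipide library 2, and 910 higher and 268 lower without rebamipide library 3. The share differences moved between 14.7 and 19.5 points (Fabp3), 21.5 and 30 (Fabp4), -49.4 and -36.1 (Fabp5) and -0.13 and -0.0657 (Fabp7). Against 2093 genes higher and 968 lower in the fit reported, DESeq2 called 2534 lower, total-count scaling 1258 higher and 3752 lower, and a minimum of 10 counts in every library 1512 lower. limma on log2(FPKM + 1) called 1401 higher and 4809 lower, and on log2(FPKM + 0.1) it called 1391 higher and 4777 lower and 2 members lower, Fabp7 being the added one (-1.48, adjusted p = 0.0413). The cause of these shifts was not tested, but FPKM and total-count scaling use no TMM factors, and the latter moved the median log2 fold change of all genes from -0.175 to -0.778. From read counts, share differences were 4.31 (Fabp3), 37.4 (Fabp4) and -0.0345 points (Fabp7), and on coding transcript lengths 4.59 (Fabp3) and 35 (Fabp4). The coding transcript length was chosen after seeing the data, as were the limma-voom fits with a library left out and the blocked fits with DESeq2 and limma-voom.

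Libraries with the same replicate number did not deviate from their group means together (correlations of -0.016, -0.038 and 0.003), so the numbers were not taken as pairs. With the replicate block, edgeR called 6 members higher and 1 lower, and 1432 genes higher and 855 lower. Blocked DESeq2 called 3330 and 3610 genes. Lpl passed the threshold under the edgeR block (1.83, adjusted p = 0.04087). No library correlated best with its own number. Promoter matches and marker levels were not recomputed under the alternatives.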
